A study of Homo sapiens with 6 samples.

Results

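The 10 genes described here encode proteins that stabilise or destabilise microtubules, the polymers that paclitaxel binds. They are STMN1, STMN3, MAP4, MAP1B, MAP7, MAPT, MAPRE1, CKAP5, KIF2A and CLASP1, listed by name for what their proteins do to tubulin. They are 10 of the 61015 genes with a matched transcript, and 9 of them passed the filter on low counts (STMN3 did not), so 9 of the 20442 genes tested were members. LncRNA sequencing of total RNA was carried out on paclitaxel (PTX)-resistant MDA-MB-231 cells, a human triple-negative breast cancer line, which were separated by flow cytometry according to the activity of aldehyde dehydrogenase (ALDH). The ALDH+ cells are called BCSC, for breast cancer stem cells, and the ALDH− cells non-BCSC. With 3 libraries each, they share the line and the acquired resistance and differ in the sorted fraction. All 6 carry the same cell type label, and the sample titles gave the groups. Nothing states that the 3 libraries of a group came from separate cultures, so the p-values measure the spread between these libraries, which may be technical, and no untreated or PTX-sensitive cells were analysed here.

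Microtubules switch between growth and shrinkage at their ends, and paclitaxel holds the polymer in its assembled state. Stathmins sequester free tubulin dimers, lattice-binding MAPs coat and stiffen the polymer, plus-end proteins ride on the growing end and regulate polymerisation, and kinesin-13 motors peel tubulin off the ends. Levels of tau (MAPT), stathmin and MAP4 have long been studied beside the response of tumours to taxanes.

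The BCSC libraries held from 15925943 to 21215352 counts and the non-BCSC libraries from 9898588 to 12263667, so each BCSC library was deeper than each non-BCSC library. Olfactory receptor genes, which breast cells are not thought to express and which served here as a measure of background, took 0.883 to 2.74 counts per kb of transcript in the BCSC libraries and 7.18 to 13.2 in the non-BCSC libraries. The log2 fold changes (BCSC over non-BCSC throughout) of the tested genes also moved with the GC content of the transcripts, with Spearman's rho 0.55 across 20442 genes, which share the 6 libraries and are not independent replicates. The members were therefore also fitted with GC content and transcript length corrected and with the olfactory receptor background removed, and those values stand beside a result where they change its call or its sign.

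MAP1B had by far the highest CPM of the 10 genes and STMN3 the lowest, in both fractions. Levels between genes were compared as CPM (counts over the TMM library size, brought to the same scale in each library) per kb of the longest annotated transcript. For STMN1 that is STMN1-207, of 2947 nucleotides, while most of its counts were on STMN1-206, of 1443 nucleotides. The level of STMN1 per kb, and its distance from MAP1B, therefore depend on the length used. In BCSC the mean level of MAP1B was 369 ± 29.3 CPM per kb (SD, n = 3), followed by STMN1 at 149 ± 15.3, CKAP5 at 140.3 ± 9.18 and MAPRE1 at 101 ± 1.47. KIF2A (41.8 ± 4.51), MAP4 (40.4 ± 7.97) and CLASP1 (19.3 ± 1.27) formed a middle range in CPM per kb, and MAP7 (2.99 ± 0.630), MAPT (1.58 ± 0.360) and STMN3 (0.272 ± 0.0984) were low. The order was the same in non-BCSC, from 264 ± 18.1 CPM per kb for MAP1B to 1.66 ± 0.661 for MAPT and 0 for STMN3. Neighbours in that order overlapped in their library values for STMN1 and CKAP5 and for KIF2A and MAP4 in BCSC, and for MAP7 and MAPT in non-BCSC. All other neighbours were separated in all 3 libraries of the group.

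**Figure D1:**
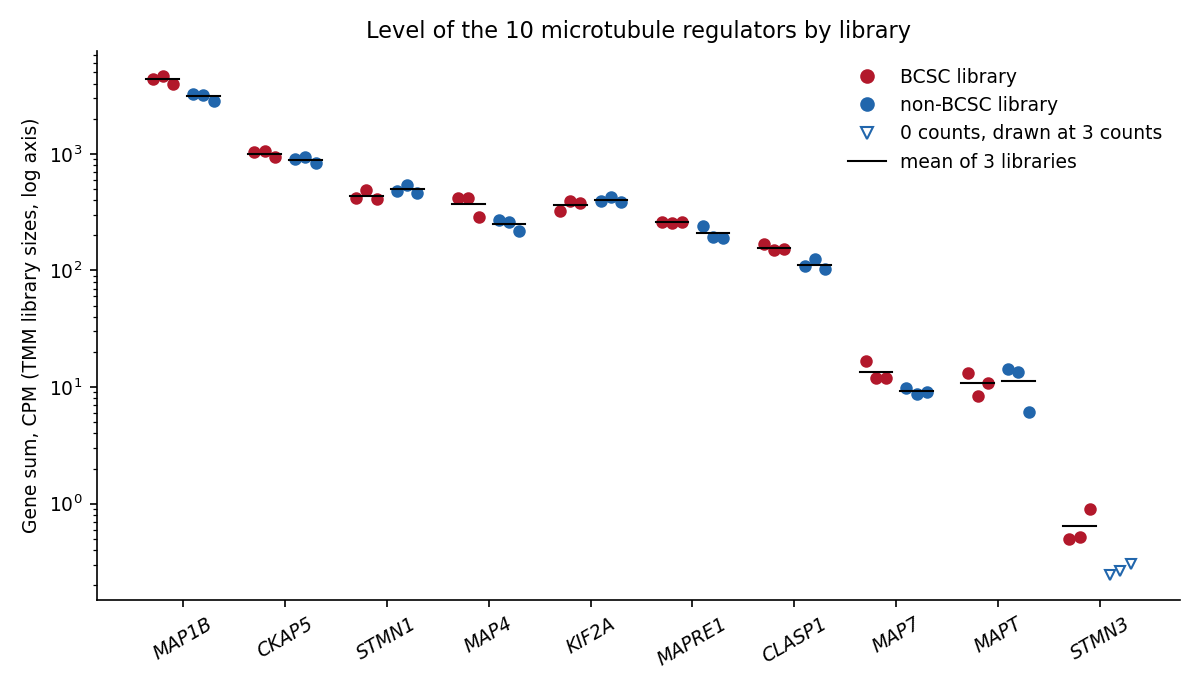
Gene sums of the 10 members in CPM on a log axis, 1 point per library (red BCSC, blue non-BCSC), with a line at the mean of each group of 3. The members span from 4349 CPM for MAP1B to 0.641 CPM for STMN3 in BCSC, and the open triangles mark the non-BCSC libraries, in which STMN3 had 0 counts.

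Against the background measure, 7 members stood well clear in both fractions and 3 did not. Per kb, the non-BCSC counts of CLASP1 were 16 times those of the olfactory receptor genes, and those of MAP4, KIF2A, MAPRE1, CKAP5, STMN1 and MAP1B were 31.6 to 309 times. MAP7 and MAPT reached 2.38 and 1.97 times in non-BCSC and 34.7 and 18.4 times in BCSC. STMN3 was at 3.07 times in BCSC. In non-BCSC, MAP7 and MAPT therefore lay within a few times of the background and STMN3 had no counts, and differences in these 3 genes are less certain than those in the other 7.

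**Figure D2:**
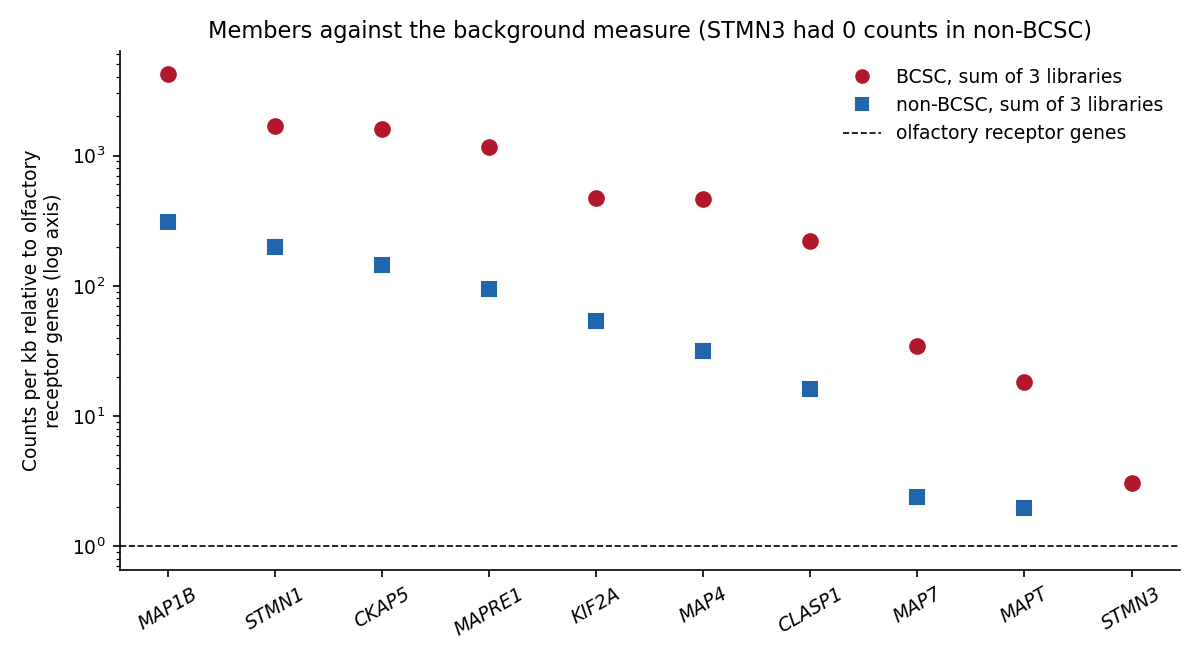
Counts per kb of each member divided by counts per kb of 391 olfactory receptor genes, summed over the 3 libraries of a group, on a log axis (red circles BCSC, blue squares non-BCSC). The dashed line marks the olfactory receptor genes themselves, and MAP7 (2.38) and MAPT (1.97) lie close to it in non-BCSC.

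Of the stathmins, STMN1 was abundant with a difference between the fractions that did not pass the test, and STMN3 was nearly silent. STMN1 (ENSG00000117632, chr1:26210672-26233482, minus strand, GRCh37), which binds pairs of tubulin dimers and keeps them from polymerising, had 417, 491 and 409 CPM in BCSC against 485, 545 and 459.9 CPM in non-BCSC. BCSC 2 lay above 2 of the non-BCSC libraries and the groups overlapped, with a log2 fold change of −0.18 (SE 0.11, adjusted p 0.240 in edgeR). With background removed the value passed the test at −0.42 (adjusted p 0.0196 in edgeR), and with GC content corrected it had the opposite sign, 0.24 (adjusted p 0.275 in edgeR). In bulk RNA of this kind, fewer cells that express a gene and less RNA per cell cannot be told apart. The reads of STMN1 could in part be shared with its processed pseudogenes STMN1P1, with 31 counts in BCSC against 33 in non-BCSC, and STMN1P2, with 6 and 2. Besides the leading coding transcript STMN1-206 (ENST00000455785.7), STMN1-207, for which no coding sequence is annotated, had 2350, 881 and 2470 counts in BCSC libraries 1 to 3 and 987, 1313 and 505 in non-BCSC libraries 1 to 3, which overlapped.

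STMN3 (ENSG00000197457, chr20:62271058-62289035, minus strand, GRCh37), a stathmin relative best known from neurons, had 10, 8 and 15 counts in BCSC against 0 in each non-BCSC library. The groups did not overlap, but the gene failed the filter on low counts and was not tested across all genes. A count of 0 allows up to 3 counts, or 0.245 to 0.303 CPM of the total counts of these libraries. The mean of STMN3 in BCSC, 0.623 CPM of total counts, was 2.30 times the mean of that floor, 0.270. The counting error of the BCSC counts does not enter that ratio. By exact permutation of the libraries (two-sided) p was 0.1, which is the lowest value that 20 arrangements of 3 against 3 can reach. The neuronal genes fixed as a check were at 18.7 to 23.9 CPM of total counts in sum over the BCSC libraries and 32.4 to 60.5 over the non-BCSC libraries (9 of 9 on file, 4 tested). Of the 4 tested, 0 were called higher and 1, ELAVL4, lower in BCSC, and their median log2 fold change was −1.02. Among the untested ones, SYN1, a synaptic vesicle protein, had 3, 4 and 8 counts in BCSC against 0 in non-BCSC, RBFOX3 had 0 in all BCSC libraries against 4, 0 and 7 in non-BCSC, and SYP had 2 counts in BCSC 2 and 0 elsewhere.

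Among the lattice-binding MAPs, MAP1B and MAP4 were higher in BCSC by less than the 2-fold minimum set for a call, while MAP7 (0.55) and MAPT (−0.07) did not pass the test. MAP1B (ENSG00000131711, chr5:71403061-71505392, plus strand, GRCh37), which binds and stabilises microtubules in growing axons, had 4376, 4681 and 3991 CPM in BCSC against 3253, 3214 and 2867 CPM in non-BCSC. Each BCSC library lay above all 3 non-BCSC libraries. Its log2 fold change came to 0.48 (SE 0.09, adjusted p 0.00635 in edgeR), or 1.40-fold. Among 19955 protein-coding genes MAP1B ranked 40 in BCSC against 72 in non-BCSC by CPM per kb, and 4 against 6 by CPM, which favours long transcripts. It took 0.421% of all counts in BCSC and 0.314% in non-BCSC. It kept an edgeR adjusted p under 0.05 with each library left out in turn (0.00601 to 0.0339), but not with background removed (0.24, 0.0605) or with GC content corrected (0.41, 0.0742). Nearly all of its counts, 99.5% ± 0.338 in BCSC against 99.4% ± 0.531 in non-BCSC, were assigned to MAP1B-201 (ENST00000296755.12), so the gene sum is close to the count of 1 transcript. The 250 bases before the RefSeq start that matched this transcript are shown because MAP1B had the highest CPM of the members. It was also 1 of the 3 that passed the test without a minimum fold. The window is chr5:72107225-72107474 on the plus strand of GRCh38.p14, from RefSeq, and capitals mark a TATA box (TATAAA) and GC boxes (GGGCGG on either strand).
MAP1B promoter: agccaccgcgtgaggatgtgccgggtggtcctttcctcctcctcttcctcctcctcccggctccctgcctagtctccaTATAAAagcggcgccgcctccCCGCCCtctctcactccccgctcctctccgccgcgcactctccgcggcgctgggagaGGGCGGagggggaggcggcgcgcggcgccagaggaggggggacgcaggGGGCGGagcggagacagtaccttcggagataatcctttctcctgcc

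MAP4 (ENSG00000047849, chr3:47892180-48130762, minus strand, GRCh37), the main structural MAP of non-neuronal cells, had 415, 416 and 288 CPM in BCSC against 271, 258 and 216 CPM in non-BCSC. BCSC 3 lay closest to the non-BCSC libraries, and the groups did not overlap. Its log2 fold change was 0.58 (SE 0.15, adjusted p 0.0200 in edgeR), or 1.5-fold. The adjusted p was above 0.05 without BCSC replicate 1 (0.0684), BCSC replicate 2 (0.0757), non-BCSC replicate 2 (0.0522) or non-BCSC replicate 3 (0.0682), with GC content corrected (0.46, 0.0717) and with background removed (0.36, 0.0907). The 250 bases before the RefSeq start that matched MAP4-202, at chr3:48088849-48089098 on the minus strand of GRCh38.p14, are shown with CCAAT boxes (CCAAT or ATTGG) and GC boxes in capitals.
MAP4 promoter: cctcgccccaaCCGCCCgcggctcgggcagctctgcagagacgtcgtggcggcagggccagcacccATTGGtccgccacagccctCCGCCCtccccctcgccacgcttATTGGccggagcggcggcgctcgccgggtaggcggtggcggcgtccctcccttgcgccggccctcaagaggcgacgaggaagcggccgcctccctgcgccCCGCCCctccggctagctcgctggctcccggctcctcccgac

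MAP7 (ENSG00000135525, chr6:136663419-136871957, minus strand, GRCh37), which binds the lattice and recruits kinesin-1, had 16.8, 11.9 and 11.9 CPM in BCSC against 9.90, 8.75 and 9.01 CPM in non-BCSC. The groups were separated, and the difference did not pass the test, with a log2 fold change of 0.55 (SE 0.29, adjusted p 0.177 in edgeR). With background removed the value was 1.0 (adjusted p 0.0970 in edgeR). MAPT (ENSG00000186868, chr17:43971893-44105700, plus strand, GRCh37), the gene of tau, had 13.3, 8.35 and 10.8 CPM in BCSC against 14.4, 13.4 and 6.14 CPM in non-BCSC. The highest and the lowest library were both non-BCSC, and the log2 fold change was −0.07 (SE 0.38, adjusted p 0.908 in edgeR). Its sign was positive with background removed (0.02) and in 3 of the fits that left out 1 library. Counts of MAPT were spread over many isoforms, with its most counted transcript, MAPT-201 (ENST00000262410.10), at 26.5% ± 13 of the gene in BCSC against 41.2% ± 30.8 in non-BCSC.

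Of the plus-end proteins, CLASP1 was higher in BCSC, while MAPRE1 (0.32) and CKAP5 (0.18) did not pass the test. MAPRE1 (ENSG00000101367, chr20:31407760-31438211, plus strand, GRCh37), which encodes EB1, the protein that tracks growing ends and brings other plus-end proteins to them, had 263, 256 and 258 CPM in BCSC against 242, 193 and 189 CPM in non-BCSC. The 3 BCSC libraries were close together and above all non-BCSC libraries, of which non-BCSC 1 was the nearest. The log2 fold change was 0.32 (SE 0.12, adjusted p 0.0640 in edgeR). Without non-BCSC replicate 1 it was 0.50 (adjusted p 0.0166 in edgeR), with no filter on low counts 0.39 (adjusted p 0.0255 in edgeR), and with GC content corrected 0.82 (adjusted p 0.00898 in edgeR). It was 0.09 with background removed (adjusted p 0.555 in edgeR) and 0.17 with at least 10 counts in each library (adjusted p 0.256 in edgeR). All of its counts belonged to 1 annotated transcript. Its processed pseudogenes MAPRE1P1, MAPRE1P2 and MAPRE1P3 had 3, 0 and 0 counts in BCSC against 24, 7 and 14 in non-BCSC.

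CKAP5 (ENSG00000175216, chr11:46764598-46867859, minus strand, GRCh37), the gene of the microtubule polymerase chTOG, had 1036, 1052 and 931 CPM in BCSC against 895, 939 and 828 CPM in non-BCSC. BCSC 3 lay below non-BCSC 2, and the log2 fold change was 0.18 (SE 0.09, adjusted p 0.167 in edgeR). With background removed it was −0.06 (adjusted p 0.634 in edgeR) and with GC content corrected 0.66 (adjusted p 0.0167 in edgeR). The gene's main transcript, CKAP5-210 (ENST00000529230.6), holds a coding exon of 180 nucleotides that CKAP5-201 and CKAP5-202 lack. It is shown because transcripts without it had counts in BCSC alone. The exon lies at chr11:46776438-46776617 on the minus strand of GRCh37 and keeps the reading frame.
CKAP5 exon: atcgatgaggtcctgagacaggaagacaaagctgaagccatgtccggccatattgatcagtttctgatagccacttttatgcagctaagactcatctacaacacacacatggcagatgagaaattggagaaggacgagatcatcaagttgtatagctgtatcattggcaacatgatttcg
Of the counts on transcripts that span this exon, the share with it was 83.9%, 100% and 76.8% in BCSC against 100% in each non-BCSC library. BCSC 1 and 3 held the transcripts without the exon, and BCSC 2 did not. CKAP5-202 had 2180, 0 and 2955 counts in BCSC and CKAP5-201 had 1191, 0 and 580, with 0 counts for both in all non-BCSC libraries.

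CLASP1 (ENSG00000074054, chr2:122095352-122407052, minus strand, GRCh37), which promotes rescue of shrinking microtubules and anchors their ends at kinetochores and the cell cortex, had 168, 149 and 153 CPM in BCSC against 109, 125 and 102 CPM in non-BCSC. Each BCSC library lay above all non-BCSC libraries, with a log2 fold change of 0.49 (SE 0.12, adjusted p 0.0146 in edgeR), or 1.40-fold. The adjusted p was 0.0635 without BCSC replicate 1 and 0.0850 with background removed (0.29), and with GC content corrected the value was 0.77 (adjusted p 0.00667 in edgeR). NIFK-AS1 lies on the opposite strand, with 335 counts in BCSC against 354 in non-BCSC. The 250 bases before the RefSeq start that matched CLASP1-215, the most counted transcript of CLASP1, at chr2:121649463-121649712 on the minus strand of GRCh38.p14, held none of the motifs searched and carry no capitals.
CLASP1 promoter: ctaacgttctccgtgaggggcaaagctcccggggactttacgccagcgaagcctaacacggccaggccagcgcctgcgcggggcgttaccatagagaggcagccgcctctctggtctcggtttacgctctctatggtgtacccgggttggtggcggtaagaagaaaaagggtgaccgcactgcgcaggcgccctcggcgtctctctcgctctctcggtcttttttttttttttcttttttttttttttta
Although the gene sum was higher in all 3 BCSC libraries, the division among transcripts split the BCSC libraries. CLASP1-215 (ENST00000696935.1) had 162, 20 and 2313 counts in BCSC against 1289, 1201 and 960 in non-BCSC, while CLASP1-214 (ENST00000541377.5) had 2316, 2008 and 50 in BCSC against 0, 169 and 39 in non-BCSC. BCSC 1 and 2 were thus assigned mostly to CLASP1-214, and BCSC 3 resembled the non-BCSC libraries. A pair of coding exons that tell the transcripts apart is shown for that reason, 1 of 48 nucleotides in CLASP1-214 (chr2:122203025-122203072) and 1 of 108 nucleotides in CLASP1-215 (chr2:122176198-122176305), both on the minus strand of GRCh37 and both in frame.
CLASP1-214 exon: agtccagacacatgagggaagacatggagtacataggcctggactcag
CLASP1-215 exon: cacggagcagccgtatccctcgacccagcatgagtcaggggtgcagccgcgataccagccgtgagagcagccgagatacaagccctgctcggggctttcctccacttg
The share of spanning counts with the 48-nucleotide exon was 70.2%, 91.8% and 2.04% in BCSC against 0%, 12.3% and 3.86% in non-BCSC. For the 108-nucleotide exon it was 4.91%, 0.914% and 94.4% in BCSC against 99.8%, 87.4% and 95.0% in non-BCSC.

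The depolymerase KIF2A did not pass the test, and its direction depended on the treatment of the counts. KIF2A (ENSG00000068796, chr5:61601989-61686852, plus strand, GRCh37), a kinesin-13 motor that removes tubulin from microtubule ends, had 321, 396 and 380.3 CPM in BCSC against 391, 425 and 386 CPM in non-BCSC. The groups overlapped, with a log2 fold change of −0.13 (SE 0.11, adjusted p 0.376 in edgeR). KIF2A had the lowest GC content of the members, 39.2%, with a log2 fold change of −0.36 (adjusted p 0.0401 in edgeR) when background was removed and 0.75 (adjusted p 0.0134 in edgeR) when GC content was corrected. DIMT1 overlaps it on the opposite strand, with 2094 counts in BCSC against 2156 in non-BCSC, and reads of the overlap can be told apart only if strand was used in counting, which is not stated. The main coding transcripts of KIF2A differ in a stretch of 57 nucleotides at the end of an exon (chr5:61648415-61648537, plus strand, GRCh37), given in capitals, which is present in KIF2A-202 (ENST00000401507.7) and absent from KIF2A-220 (ENST00000676271.1).
KIF2A exon: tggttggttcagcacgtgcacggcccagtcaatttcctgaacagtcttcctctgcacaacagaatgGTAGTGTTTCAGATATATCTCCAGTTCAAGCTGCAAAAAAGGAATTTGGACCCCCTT
The share of spanning counts with the longer exon was 67.8%, 43.8% and 78.5% in BCSC against 32.1%, 68.0% and 69.3% in non-BCSC. The fractions overlapped, and the values within each ranged widely. KIF2A-219, annotated with a retained intron, was the most counted transcript in BCSC 1, BCSC 3 and non-BCSC 3, with 2170, 928 and 2060 counts in BCSC libraries 1 to 3 and 4, 15 and 1267 in non-BCSC libraries 1 to 3.

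As a group, the 9 tested members had differences of less than 2-fold in either direction. At an adjusted p under 0.05 with a fold above 2, 0 of the 9 tested members were called, where 8.85% of the 20442 tested genes were called higher and 11.3% lower (quasi-likelihood test of edgeR). The same count of 0 was found under each alternative that kept the minimum fold, DESeq2 included. At an unadjusted p under 0.05, 4 of the 9 were higher and 0 lower, where 20.8% of the tested genes were higher and 22.3% lower. Without a minimum fold, 3 of the 9 were higher (MAP1B, MAP4 and CLASP1) and 0 lower, against 15.3% higher and 14.6% lower among all tested genes. In CPM, all 3 BCSC libraries lay above all 3 non-BCSC libraries for 5 of the 9 tested members (MAP1B, MAP4, MAP7, MAPRE1 and CLASP1), where this held for 24.2% of the tested genes, and below them for 0, against 27.9%. The members' median log2 fold change was 0.32, beside −0.05 over all tested genes and 0.17 over the 13059 genes that were tested in every fit.

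The treatment of GC content and background moved the values of several members, those of KIF2A, STMN1, CKAP5 and MAPRE1 among them, by more than their standard errors. With GC content and length corrected, CKAP5, CLASP1, KIF2A and MAPRE1 were higher in BCSC (0.66 to 0.82), while MAP1B and MAP4 no longer passed. CKAP5, CLASP1, KIF2A and MAPRE1 have a GC content of 39.2% to 45.4%, below the median of 46.2% over the tested genes, whereas MAP1B and MAP4 are at 49.7% and 50.3%. STMN1, also below the median at 45.6%, did not pass in that fit (0.24, adjusted p 0.275 in edgeR). Neither did MAP7 at 47.2% (0.70, 0.0799) or MAPT at 56.1% (−0.74, 0.124). With background removed, 0 members were higher and STMN1 and KIF2A were lower. That fit tested 16511 genes in place of 20442, with TMM library sizes computed anew. In it MAP1B went from 0.48 to 0.24, STMN1 from −0.18 to −0.42 and CKAP5 from 0.18 to −0.06. MAP4 went from 0.58 to 0.36, CLASP1 from 0.49 to 0.29, KIF2A from −0.13 to −0.36 and MAPRE1 from 0.32 to 0.09. All of these abundant members thus moved down by similar amounts, while MAP7 and MAPT moved up. In non-BCSC, counts per kb of CKAP5, STMN1 and MAP1B were 144, 197 and 309 times those of the olfactory receptor genes. A filter of at least 10 counts in each library, with no background removed, also moved the abundant members down. It gave −0.33 for STMN1 (adjusted p 0.0232 in edgeR) and −0.28 for KIF2A (adjusted p 0.0493 in edgeR). The cause of the shift in these abundant members was not tested. MAP4, MAP1B, CLASP1, MAP7 and MAPRE1 had a positive log2 fold change in every fit, and their smallest values were 0.36, 0.24, 0.29, 0.37 and 0.09. The direction of KIF2A, STMN1, CKAP5 and MAPT depended on the treatment.

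**Figure D3:**
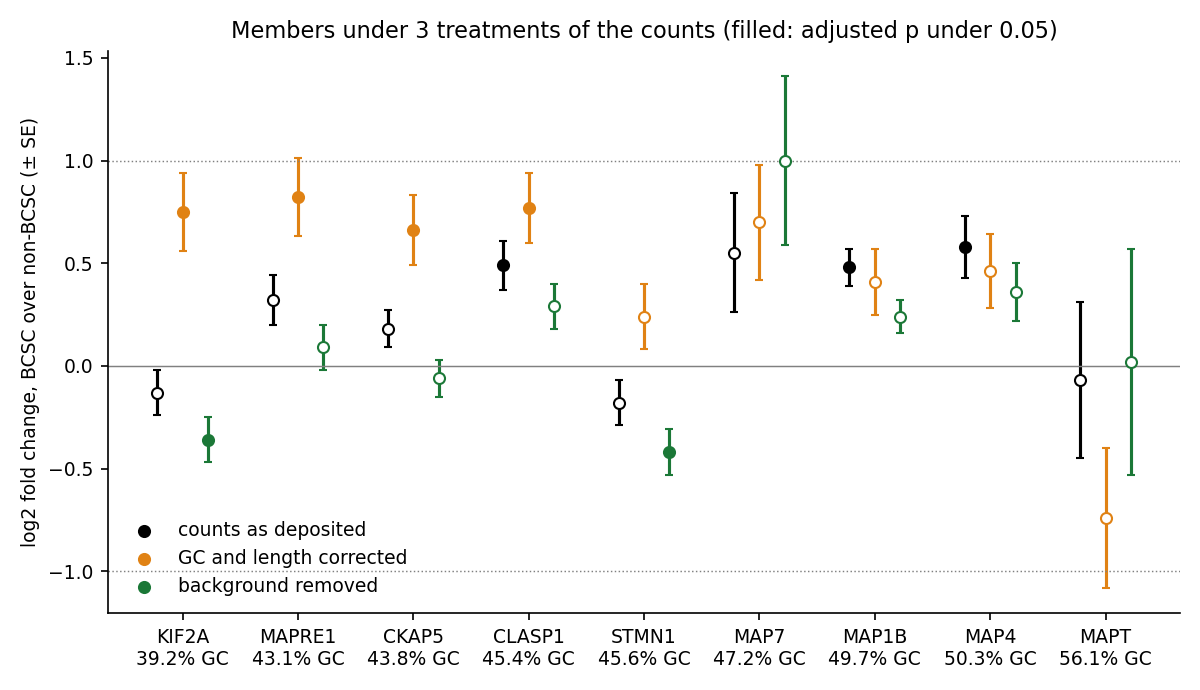
Log2 fold change of the 9 tested members (BCSC over non-BCSC) with its SE, for the counts as deposited (black), with GC content and length corrected (orange) and with background removed (green). Members are ordered by the mean GC content of the gene's annotated transcripts. Filled points have an edgeR adjusted p under 0.05, and dotted lines mark a 2-fold difference. KIF2A runs from −0.36 to 0.75 and MAP1B from 0.24 to 0.48.

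The transcripts of the members varied more between libraries than the gene sums. Of 127 member transcripts on file, 94 had counts and 42 were tested as deposited. None of the 42 was called by edgeR, where 0.784% of 46176 tested transcripts were called in either direction. At an unadjusted p under 0.05 there were 5 of the 42, where 17.4% of the tested transcripts passed, and the smallest adjusted p was 0.0656 (MAP1B-201, log2 fold change 0.56, SE 0.10). Over all tested features, and not the members alone, the common biological coefficient of variation was 1.02 for transcripts and 0.453 for gene sums. DESeq2 called 6 member transcripts higher and 1 lower, where it called 3.55% of 83853 transcripts higher and 3.15% lower. The 6 were CKAP5-201, CKAP5-202, MAP4-208, CLASP1-207, KIF2A-203 and KIF2A-211, and the lower one was MAP4-207. Of these, KIF2A-203 (18, 79 and 367 counts) and KIF2A-211 (14, 45 and 361 counts) were present in all 3 BCSC libraries and at 0 in all non-BCSC libraries. Each of the other 5 had a BCSC library at 3 counts or fewer and did not separate the fractions.

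In MAP4 the division among transcripts split the non-BCSC libraries. MAP4-202 (ENST00000360240.10) had 5285, 4194 and 2708 counts in BCSC against 0, 1706 and 3 in non-BCSC, and MAP4-207 (ENST00000426837.6) had 0, 0 and 3 in BCSC against 2397, 0 and 1762 in non-BCSC. Non-BCSC 1 and 3 were assigned mostly to MAP4-207 and non-BCSC 2 to MAP4-202, as were the BCSC libraries. MAP4-207 holds a long coding exon of 3384 nucleotides (chr3:47950528-47953911, minus strand, GRCh37) and a short one of 51 nucleotides (chr3:48028873-48028923, minus strand, GRCh37) that MAP4-202 lacks. The short exon is shown because it tells the transcripts apart.
MAP4-207 exon: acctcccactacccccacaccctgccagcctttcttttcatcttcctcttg
The share of spanning counts with the short exon was 0.0808%, 0.0189% and 0.0985% in BCSC against 80.9%, 0% and 82.1% in non-BCSC. For the long exon it was 19.9%, 19.3% and 31.1% in BCSC against 88.8%, 36.5% and 90.7% in non-BCSC, so that the fractions did not overlap. The choice of exons was made with these shares in view, which are given without a test. They rest on the estimated division of reads between transcripts and not on reads counted across splice junctions.

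No member's most counted transcript took a share of its gene that separated the fractions. Among the 8 members with more than 1 counted transcript and tested counts, exact two-sided permutation tests gave p from 0.2 to 0.8, and 0.640 to 0.800 after adjustment over the 8, where 0.1 is the smallest p possible. The means were 65.0% ± 19.3 in BCSC against 76.6% ± 10.5 in non-BCSC for STMN1-206, 61.8% ± 4.52 and 19.5% ± 33.7 for MAP4-202, and 80.7% ± 8.35 and 70.2% ± 17.3 for MAP7-208. For CKAP5-210 they were 86.3% ± 11.9 and 98.8% ± 0.407, for KIF2A-220 31.6% ± 17.3 and 42.3% ± 21.3, and for CLASP1-215 32.3% ± 51.1 and 91.0% ± 6.35 (SD, n = 3 each). The same transcript led in all 6 libraries for STMN1, MAP1B, MAP7 and CKAP5, whereas KIF2A, MAPT, MAP4 and CLASP1 had no such transcript.

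**Figure D4:**
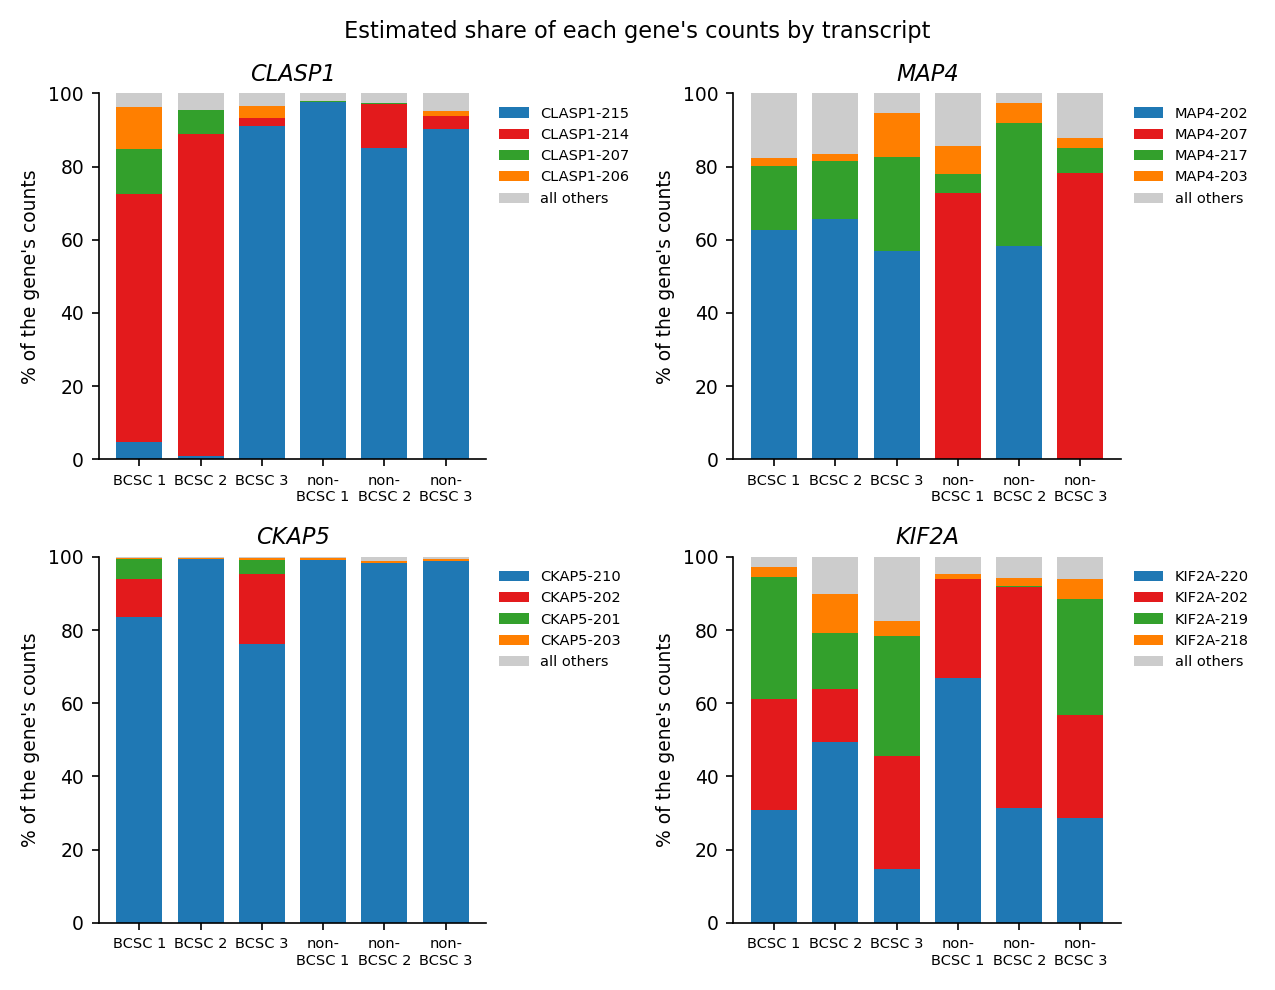
Share of each gene's counts assigned to its 4 most counted transcripts (colours) and to all others (grey), as stacked bars from 0 to 100% for the 6 libraries. CLASP1-215 takes 0.878% to 91.2% among the BCSC libraries, and MAP4-202 takes 0% to 58.4% among the non-BCSC libraries.

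For 7 members a RefSeq promoter window could be matched to the most counted transcript by a shared run of 30 bases (STMN1, STMN3, MAP4, MAP1B, MAPRE1, CKAP5 and CLASP1). In the 250 bases before the start, a GC box (GGGCGG on either strand) stood in 6 of the 7, against 42.6% of 35116 windows in the RefSeq set, and a CCAAT box (CCAAT on either strand) stood in 4 (STMN1, MAP4, MAPRE1 and CKAP5), against 32.0%. TATAAA was found for MAP1B and MAPRE1 (10.7% of windows), and CACGTG for STMN1 and MAPRE1 (6.34%). An E2F-like word (TTTCCCGC, TTTCGCGC, TTTGCCGC or TTTGGCGC on either strand) was found for STMN1 (2.79%), and a CHR-like word (TTTGAA or TTTAAA on either strand) for CKAP5 (21.9%). Of the members that passed the test without a minimum fold, MAP1B and MAP4 both had a GC box. The CLASP1 window held none of the motifs searched. These matches are letters in a window, not sites.

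The nearest relatives of the members included larger differences than the members themselves. MAP1S, a MAP1 family protein, was higher in BCSC (382, 153 and 178 against 46, 51 and 45 counts) with a log2 fold change of 1.65 (SE 0.38, adjusted p 0.0122 in edgeR). MAP7D1, a MAP7 relative, was higher (1197, 599 and 647 against 94, 155 and 76 counts) by 2.25 (SE 0.30, adjusted p 0.00126 in edgeR). Conversely MAP2, the dendritic MAP related to tau and MAP4, was lower (101, 115 and 141 against 377, 527 and 450 counts), with a log2 fold change of −2.53 (SE 0.28, adjusted p 0.000586 in edgeR). The groups did not overlap for any of the 3. In non-BCSC, MAP1S, MAP7D1 and MAP2 were at 1.44, 3.24 and 4.65 times the counts per kb of the olfactory receptor genes. They thus lay within a few times of the background there, and these differences are less certain. KIF2B, a kinesin-13 relative of KIF2A, was lower on few counts, with 4, 2 and 0 in BCSC against 47, 21 and 37 in non-BCSC, where it was at 1.59 times the counts per kb of the olfactory receptor genes. KIF2C, the mitotic kinesin-13, had a log2 fold change of 0.55 (SE 0.13, adjusted p 0.0155 in edgeR), short of the minimum fold, beside −0.13 for KIF2A. The differences between relatives were not tested. Log2 values of relatives that did not pass as deposited were 0.02 for CLASP2, 0.53 for MAPRE2 and 0.05 for MAPRE3. They were −0.16 for MAP7D3, 1.09 for MAP1A and 1.35 for MAP6. With GC content corrected, CLASP2 (0.65, adjusted p 0.00805 in edgeR) and MAPRE2 (0.87, adjusted p 0.0219 in edgeR) passed, under the minimum fold. With background removed, MAP1A (9.80, adjusted p 0.00407 in edgeR) and MAP6 (7.49, adjusted p 0.0206 in edgeR) were called. In non-BCSC both lay below the olfactory receptor genes per kb, at 0.483 and 0.191 times. STMN2, STMN4 and MAP7D2 had 0 to 34 counts per library and were not tested.

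Over 8 lists of microtubule regulators by role, 62 genes with the members included, 56 were tested, 9 were called higher and 3 lower, against 8.85% and 11.3% of all tested genes. The 9 were MAP1S, MAP7D1, CLIP2, KIF18B, FIGN, MARK2, SIRT2, ATAT1 and TTL, and the 3 were MAP2, KIF2B and VASH2. Several were near the background in non-BCSC. Per kb, CLIP2 was at 1.30, SIRT2 at 2.01, VASH2 at 2.12 and ATAT1 at 2.19 times the olfactory receptor genes there. KIF18B was at 3.65, MARK2 at 3.80, FIGN at 5.59 and TTL at 8.14 times. Differences in genes this close to the background are less certain. The 47 tested genes that were no members had a median log2 fold change of 0.50, and 18 of them were higher and 4 lower at an adjusted p under 0.05 without a minimum fold, where 15.3% and 14.6% of all tested genes were. Among the 7 enzymes that modify tubulin, 3 were called higher and 1 lower. TTL, which adds tyrosine back to alpha-tubulin, was higher by 1.05 (SE 0.13, adjusted p 0.000830 in edgeR), ATAT1, which acetylates it, by 1.33 (adjusted p 0.0439), and SIRT2, which removes that acetyl group, by 1.57 (adjusted p 0.00409), while VASH2, which removes the tyrosine, had −1.57 (adjusted p 0.0372), all log2 fold changes. Among the kinesin depolymerases KIF18B was higher by 2.11 (adjusted p 0.00142), among the severing enzymes FIGN by 1.02 (adjusted p 0.00127), among 16 plus-end proteins CLIP2 by 1.61 (adjusted p 0.0272), and among the MARK kinases, which release MAPs from the lattice, MARK2 by 1.43 (adjusted p 0.00362).

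Of the 12 called regulators, 6 remained called with GC content corrected and 6 with background removed. Those fits called 13 and 10 regulators in all, so each also called genes that were not among the 12. KIF18B, with 1.23 and 2.23, and MAP2, with −2.30 and −2.72, passed in both of these fits. MAP1S fell to 0.30 (adjusted p 0.541 in edgeR), MAP7D1 to 0.80 (0.0762), CLIP2 to 0.63 (0.209) and SIRT2 to 0.61 (0.111) with GC content corrected. These 4 genes have a GC content of 58.4% to 64.7%, and KIF18B, which stayed called in that fit, is at 58.9%. MARK2, at 56.1%, also lost the call there. It fell to 0.75, under the 2-fold minimum, with an adjusted p of 0.0109 in edgeR. The calls of ATAT1, VASH2 and CLIP2 were often lost when 1 library was left out. In those fits the log2 fold change was 1.04 to 1.84 for ATAT1 and 1.29 to 2.36 for CLIP2. ATAT1 and VASH2 each lost the call in 5 of the 6 fits that left out 1 library (edgeR adjusted p 0.0538 to 0.176 and 0.0523 to 0.133) and CLIP2 in 4 (0.0615 to 0.0968). They also lost it with background removed (edgeR adjusted p 0.0779, 0.0992 and 0.192), ATAT1 besides with GC content corrected (0.0626), RLE size factors (0.0550) and thinning (0.0590), and VASH2 with no filter on low counts (0.0758). MAP1S lost the call without BCSC replicate 1 (0.0733) and KIF2B without BCSC replicate 2 (0.0597). KIF2B was left untested with background removed and with at least 10 counts in each library, and so was not called in either. FIGN and TTL, close to the 2-fold minimum, fell under it in 7 and 6 of the 14 alternative fits.

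**Figure D5:**
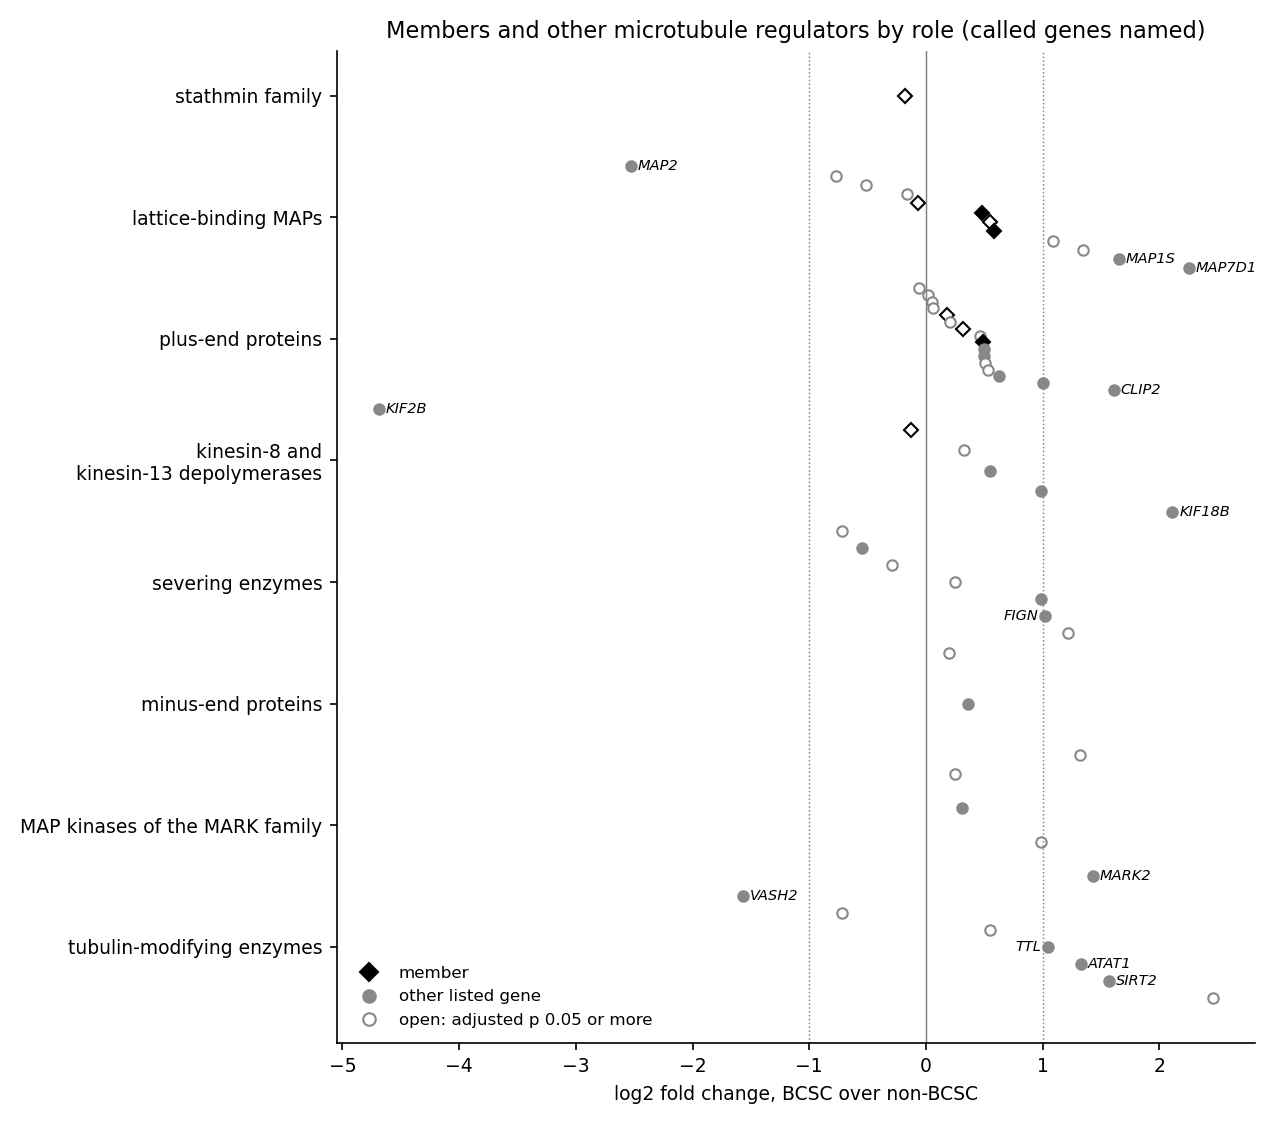
Log2 fold changes of the 56 tested regulators in 8 lists by role, with members as black diamonds and other genes as grey circles. Filled points have an edgeR adjusted p under 0.05, dotted lines mark a 2-fold difference, and the 12 called genes are named. All 9 members lie between −0.18 and 0.58.

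Context genes were read beside the members because several of the proteins act in mitosis. Of 8 proliferation markers, MCM2 and BIRC5 were called higher in BCSC while 0 were lower, and the log2 fold change of MKI67 was 0.13 (adjusted p 0.412 in edgeR). Their summed level was 4476 to 5026 CPM of total counts in the BCSC libraries and 4641 to 4868 in the non-BCSC libraries, which overlapped. Of the genes that mark the line, VIM and CD44 were abundant in all 6 libraries and EPCAM had 0 to 19 counts. ERBB2 was at 64.7 CPM in BCSC and 78.3 CPM in non-BCSC. ESR1 had 56 to 167 counts per library and a log2 fold change of −1.19 (adjusted p 0.0678 in edgeR). CD24 could not be matched. CD44 was higher in BCSC, with 2802, 2645 and 2485 CPM against 1640.2, 1478 and 1251 CPM and a log2 fold change of 0.86 (adjusted p 0.00108 in edgeR), under the minimum fold. PGR and KRT18 were called lower in BCSC, where they had 5 to 23 and 15 to 52 counts, and in non-BCSC they were at 1.22 and 6.17 times the counts per kb of the olfactory receptor genes. Of the neuronal genes, ELAVL4 was called lower (8, 0 and 4 against 21, 36 and 90 counts), at 1.27 times that measure in non-BCSC. Whether these markers bear on the members' values was not tested.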

How the data were processed

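LncRNA sequencing of 6 libraries (3 BCSC, 3 non-BCSC) was analysed, with groups from the sample titles. Per the labels, libraries were made with random primers and dUTP marking of the second strand, and the authors deposited whole-number estimated counts for each transcript without normalization. The paper's methods name hg19 for the alignment and the submitters' processing notes name hg38, HISAT2, featureCounts and DESeq2. The deposited values carry no coordinates, so the build behind them was not settled, and the step that divided reads between transcripts is not given in the sources used here. Transcripts were matched by identifier to GENCODE 44 on GRCh37 (98.9% of 252618, with 99.73% of the counts) and summed to genes, without the 4 transcripts whose identifiers an assembler had made. Gene and exon positions come from that annotation, and promoter windows from RefSeq on GRCh38.p14.

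Gene sums and transcripts were fitted across the whole table in edgeR 4.0.16 (R 4.3.3) by robust quasi-likelihood with no term but group, TMM library sizes and filterByExpr, after tests on simulated data. P-values are two-sided and Benjamini-Hochberg adjusted over all features tested, and calls needed a log2 fold change beyond 1 besides an adjusted p under 0.05. Shares of single transcripts were compared by exact permutation (scipy 1.17.1). The members, role lists and tests were chosen with earlier results of these data known. Named were all 10 members, their leading transcripts, their nearest relatives and up to 3 genes called higher and 3 lower in each role list. Any further name was picked with its values in view. Alternatives were DESeq2 1.42.0, RLE size factors, a minimum of 10 counts per library, no filter at all, a replicate block, a loess correction (span 0.3) for GC content and length, removal of a background per kb taken from 391 olfactory receptor genes, thinning to the smallest library, no minimum fold and each library left out in turn. Reads carry no molecular identifiers, so limits drawn from counts cover counting error only.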

Additional observations from a re-analysis of the deposited data

How the results depend on the processing

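No member was called at the 2-fold minimum in any fit of the gene sums (RLE size factors, DESeq2, both filters on low counts, the replicate block, the GC and length correction, background removal, thinning and each library left out). Without a minimum fold 3 members were higher, and the regulators called higher over the role lists went from 9 to 21. Members higher at an adjusted p under 0.05 at any fold ranged from 1 (without BCSC replicate 1) to 4 when 1 library was left out, and were 0 with background removed, where 2 were lower (STMN1 and KIF2A). The stricter filter (10 counts or more per library) also gave 2 lower. Of the regulators in the role lists, 1 was lower with background removed, and between 1 (without BCSC replicate 2) and 3 when 1 library was left out, while 8 to 12 were higher. Member transcripts called changed with DESeq2 alone, to 6 higher and 1 lower. The number of members whose most counted transcript separated the fractions ranged from 0 to 2 when 1 library was left out. The 2 were STMN1 and CKAP5 without BCSC replicate 2, MAP4 and CLASP1 without BCSC replicate 3, and MAP4 and MAP7 without non-BCSC replicate 2.

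The sign of a gene's log2 fold change turned for STMN1 (0.24) and KIF2A (0.75) with GC content and length corrected, for CKAP5 (−0.06) with background removed, and for MAPT with background removed (0.02) and in fits without 1 library (−0.34 to 0.19, of which 0.11, 0.12 and 0.19 were above 0). MAP7D3 turned to 0.53 with the GC correction. MAPRE3 turned to −0.04 with RLE, −0.00 with DESeq2, −0.10 with at least 10 counts and with thinning, −0.03 with the block, −0.46 with the GC correction, and −0.29, −0.04 and −0.18 without 1 library (range −0.29 to 0.41). CLASP2 turned to −0.07 with RLE, −0.04 with DESeq2, −0.13 with at least 10 counts, −0.19 with background removed, −0.01 with thinning and −0.09 without BCSC replicate 3 (range −0.09 to 0.14 without 1 library). The difference in share of the most counted transcript without 1 library ranged in percentage points from −0.225 to 0.275 for MAP1B (with −0.0143 and −0.0214 also below 0), from −19.5 to 1.60 for KIF2A and from −24.7 to 3.07 for MAPT, and so turned. The cause of these turns was not tested.

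The genes called over the whole table were 1810 higher and 2307 lower, 1902 and 4771 with DESeq2, 1533 and 2515 with RLE, 1907 and 1921 with the GC correction, 1785 and 1081 with background removed, 1383 and 1177 with at least 10 counts, and 3125 and 2978 without a minimum fold. Without 1 library they ranged from 959 to 2230 higher and from 1103 to 3004 lower. The median log2 fold change of the 13059 genes tested in every fit was 0.17, 0.35 with the GC correction and 0.02 under the stricter filter on low counts.

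Titles give both fractions the replicate numbers 1 to 3. Deviations of same-numbered libraries from their group means correlated at 0.179, 0.0143 and 0.219, so the numbers were not taken to pair the samples, and BCSC 2 did not correlate best with its own number. With a replicate block, 0 members were called higher and 0 lower, 4 passed at any fold (MAPRE1 joined them at 0.33, edgeR adjusted p 0.0292), 12 regulators were called higher and 3 lower, and 0 member transcripts were called.

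The fractions differ in depth, in background and in the link to GC content at once, and how far each enters the members' values was not tested. STMN3 had too few counts to be tested, and thinning to the smallest library left MAP7 at 0.57 and MAPT at −0.17. The transcript shares rest on an estimated division of reads.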
